A study of Mus musculus with 15 samples.

Results

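The cardiac transcription factors are the DNA-binding proteins that hold heart muscle cells to their identity. The 10 examined here are Gata4, Gata6, Nkx2-5, Mef2a, Mef2c, Mef2d, Tbx5, Tbx20, Hand1 and Hand2, and they were taken as the rows of the deposited count table whose symbol equals a member, 10 of 47069 rows with 1 row each. Messenger RNA came from the left ventricle of C57BL/6 mice, 5 hearts in each of 3 groups and 15 libraries in all. Hearts of the rHCI group were infarcted, were injected on day 7 with a hydrogel made of recombinant human collagen I, a fibrous matrix protein, and were taken 2 days after the injection. The PBS group had the same infarct and timing with an injection of phosphate-buffered saline. The Sham group was operated on without an infarct, received no treatment and was 10 weeks old at the age-matched time point. The labels give no injection for Sham, so against Sham the effects of the infarct and of the needle and its load cannot be told apart.

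GATA4, NKX2-5, TBX5 and the MEF2 proteins bind together at enhancers of heart muscle genes and switch on sarcomere, ion channel and natriuretic peptide genes, and combinations of GATA4, MEF2C, TBX5 and HAND2 can drive fibroblasts towards a muscle-like state. HAND1 and HAND2 are basic helix-loop-helix factors of the embryonic left and right ventricle. Several of these genes are also transcribed outside muscle cells, in cardiac fibroblasts, endothelium or the epicardium. In a piece of ventricle, fewer cells of a type and less RNA per cell cannot be told apart, which holds for every level below.

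Promoters of 3 members are shown: that of Hand2, which had the largest fold change, and those of Mef2a and Mef2c, relatives of which Mef2a was lower and Mef2c did not pass the test. Each window runs from 250 bases before to 50 after an annotated start (RefSeq, GRCm38.p6) and is 300 bases long. Capitals mark matches, as written or as the reverse complement, to GATAA for the GATA factors, a MEF2 motif that begins with CTA and ends with TAG after any 4 bases, AAGTG for NKX2 factors, AGGTGT for T-box factors, and the TATA box as TATAAA. The Hand2 window is chr8:57320733-57321032 on the plus strand, that of Mef2a chr7:67372809-67373108 on the minus strand, and that of Mef2c, chosen among 3 annotated starts for holding the most matches, chr13:83523406-83523705 on the plus strand.
Hand2: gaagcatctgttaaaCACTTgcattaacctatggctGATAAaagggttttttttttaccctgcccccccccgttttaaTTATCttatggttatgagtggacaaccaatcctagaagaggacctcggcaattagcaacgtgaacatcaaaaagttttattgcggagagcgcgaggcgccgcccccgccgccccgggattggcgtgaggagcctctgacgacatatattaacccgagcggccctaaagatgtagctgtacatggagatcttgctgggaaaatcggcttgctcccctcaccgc
Mef2a: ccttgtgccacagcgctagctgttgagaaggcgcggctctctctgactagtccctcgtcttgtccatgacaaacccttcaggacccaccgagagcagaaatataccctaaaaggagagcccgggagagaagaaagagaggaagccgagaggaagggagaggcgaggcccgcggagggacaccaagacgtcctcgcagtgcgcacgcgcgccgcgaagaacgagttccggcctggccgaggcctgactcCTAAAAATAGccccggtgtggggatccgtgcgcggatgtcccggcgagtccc
Mef2c: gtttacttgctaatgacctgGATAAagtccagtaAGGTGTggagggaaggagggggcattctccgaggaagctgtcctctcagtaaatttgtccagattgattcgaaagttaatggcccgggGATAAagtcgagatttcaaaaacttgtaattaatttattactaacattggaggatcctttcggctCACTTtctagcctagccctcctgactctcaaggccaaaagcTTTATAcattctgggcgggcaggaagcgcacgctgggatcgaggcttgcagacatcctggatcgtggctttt
The Hand2 window held 2 GATA matches and 1 NKX2 match. Mef2a held 1 MEF2 motif match. The Mef2c window held 2 GATA matches, 1 NKX2 match, 1 T-box match and 1 TATA box. Of the other 2 Mef2c windows, 1 held 1 NKX2 match and 1 TATA box, and the other 1 NKX2 match. Windows of Mef2d, Tbx20 and Nkx2-5 held none of the 5 motifs, and 6 of the 10 members had a window in the table. The same motifs were searched in 27025 promoters, at the first listed start of each gene. Of these, 25.8% held the GATA motif, 3.7% the MEF2 motif, 46.5% the NKX2 motif, 13.9% the T-box motif and 14.2% the TATA box. An E-box for the HAND factors, CANNTG with N any base, was also searched but not marked. So was a CArG motif, CC and GG around 6 bases of A or T. They were held by 72.1% and 1.57% of the promoters. The E-box had 2 matches for Hand2, 1 for Nkx2-5 and 0 for Mef2a, Mef2d, Tbx20 and the printed Mef2c window. The other 2 Mef2c windows held 2 and 1, and none of these windows held the CArG motif. Since the printed Mef2c window was chosen for its matches, its counts cannot be set against these shares. The GC content was 50.3% for Hand2, 62.3% for Mef2a and 47% for this Mef2c window, against a median of 52.7% over all promoters. A match describes the letters of the window, and binding was not measured in this study.

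Library totals ran from 32978702 to 103356830 counts. Levels are given as CPM, the usual share of a library's counts, scaled with TMM factors that bring the bulk of genes to a common level between libraries. Over the 5 libraries of a group, Tbx5, the member with the fewest counts after Hand1, had at least 7480 counts in sum, so that counting error is small beside the spread between hearts for all members except Hand1. Mitochondrially encoded genes took 9.77% to 14.5% of the counts in rHCI hearts, 10.1% to 12.5% in PBS hearts and 15.3% to 17.2% in Sham hearts. A number in the labels that appears to name a sequencing run was shared by 12 libraries, while PBS 6, rHCI 1 and Sham 19 carried others. Myh6, a defining gene of adult mouse ventricle, averaged 17326 ± 3619 CPM in rHCI hearts, 14693 ± 2797 CPM in PBS hearts and 29638 ± 2469 CPM in Sham hearts.

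Most of the heart muscle factors were lower after infarction. Of the 9 members tested, 6 were lower in rHCI than in Sham hearts and 0 higher, and 6 were lower in PBS than in Sham hearts and 1 higher, with edgeR (quasi-likelihood, p adjusted by Benjamini-Hochberg over all genes, threshold 0.05). The same 6 genes were lower in both comparisons, Hand2, Tbx5, Mef2a, Nkx2-5, Gata6 and Mef2d, and both comparisons use the same Sham libraries. Much of the transcriptome moved as well. Of the genes tested, 29.7% were lower and 34.1% higher in rHCI hearts, and 34.9% were lower and 36.5% higher in PBS hearts. The median log2 fold change of the members was −0.42 in rHCI hearts and −0.51 in PBS hearts, against 0.00 and −0.01 over all genes tested. Hand1, at 0 to 5 counts per library, did not pass the filter on low counts. Groups did not overlap for 5 of the lower members in rHCI hearts and all 6 in PBS hearts, while 22.4% of all genes were lower without overlap in rHCI hearts and 27.2% in PBS hearts. For genes that were higher without overlap these shares were 27.0% in rHCI hearts and 31.5% in PBS hearts, and no member was among them.

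**Figure D1:**
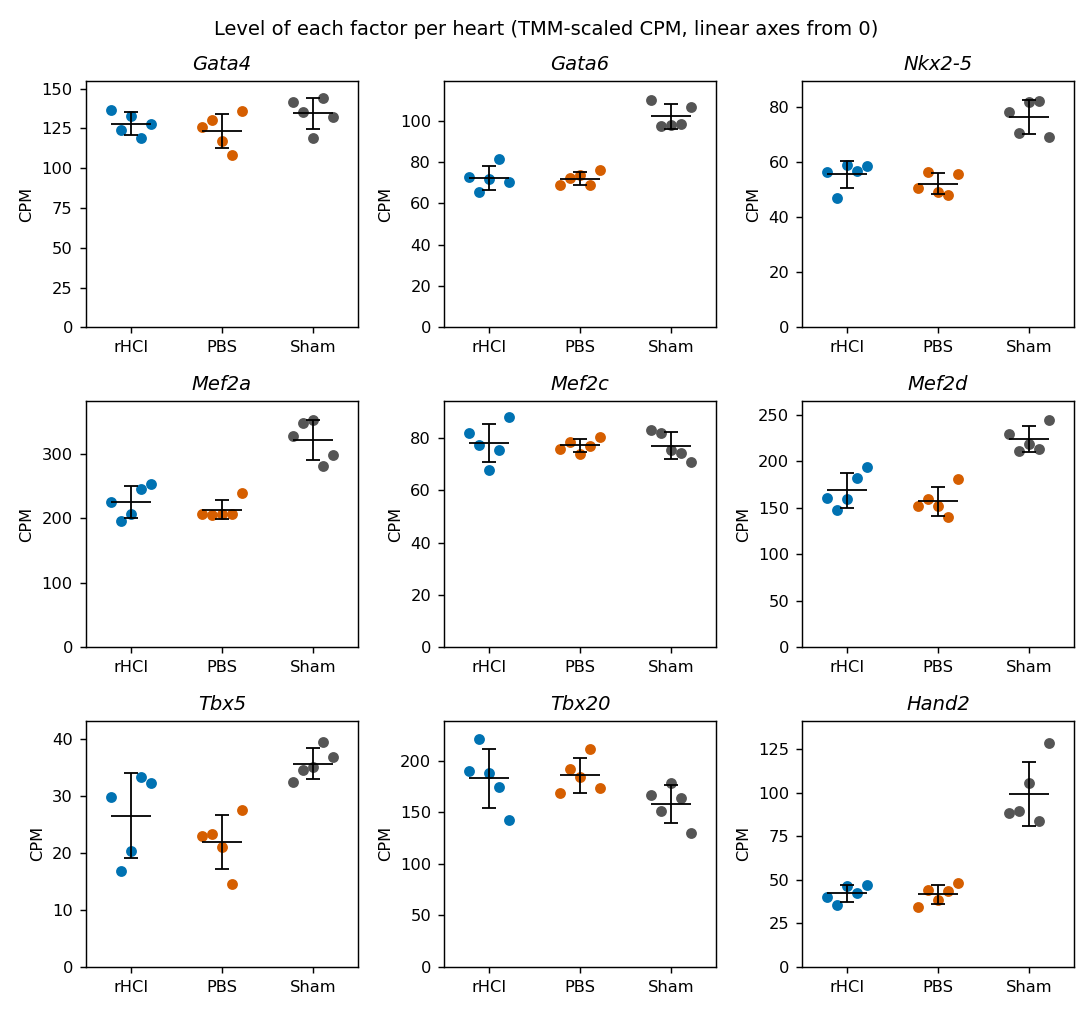
Level of 9 cardiac transcription factors in each heart, in TMM-scaled CPM on linear axes that start at 0, with the mean and SD of 5 hearts per group (rHCI, PBS, Sham). Hand2, Mef2a, Mef2d, Gata6 and Nkx2-5 lie lower in all rHCI and PBS hearts than in any Sham heart, while Gata4, Mef2c and Tbx20 overlap between groups.

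Values that follow are listed by replicate number, which is 1, 3, 7, 11 and 13 for rHCI, 2, 6, 9, 12 and 14 for PBS and 16 to 20 for Sham. Among the GATA zinc finger factors, which bind the sequence GATA at muscle promoters, Gata6 was lower and Gata4 did not pass. Gata6 (ENSMUSG00000005836) had 73.0, 65.5, 71.9, 81.4 and 70.2 CPM in rHCI hearts, 69.1, 72.2, 73.9, 68.8 and 76.2 CPM in PBS hearts, and 110.3, 97.3, 98.0, 98.7 and 107 CPM in Sham hearts. The Sham hearts were all above the infarcted hearts, and rHCI 11 was the highest of these. The log2 fold change against Sham was −0.49 ± 0.06 (adjusted p = 2.29e-05) in rHCI hearts and −0.51 ± 0.05 (adjusted p = 7.68e-07) in PBS hearts, where ± gives the standard error here and below. Gata4 (ENSMUSG00000021944; GRCm38 chromosome 14, 63198922 to 63271692), which partners NKX2-5 and TBX5 and mediates hypertrophic signals, had 137, 124, 133, 119 and 128 CPM in rHCI hearts, 126, 130, 117, 108 and 136 CPM in PBS hearts, and 141, 136, 119, 144 and 132 CPM in Sham hearts. The 3 groups overlapped. The log2 fold change was −0.06 ± 0.06 (adjusted p = 0.422) in rHCI hearts, with a 95% interval of −0.19 to 0.07, and −0.13 ± 0.07 (adjusted p = 0.117) in PBS hearts, with an interval of −0.28 to 0.02. In PBS hearts Gata4 passed without Sham replicate 18 (−0.17, adjusted p = 0.0347).

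Nkx2-5, the homeodomain factor that marks heart progenitors and keeps ventricular and conduction genes active (ENSMUSG00000015579; chromosome 17, 26838664 to 26845009), was lower in both infarcted groups. It had 56.4, 47.2, 59.2, 56.9 and 58.7 CPM in rHCI hearts, 50.8, 56.5, 49.4, 48.2 and 55.9 CPM in PBS hearts, and 78.4, 70.7, 82.1, 82.2 and 69.1 CPM in Sham hearts. No infarcted heart reached the lowest Sham heart, and rHCI 3 was the lowest of all. The log2 fold change was −0.45 ± 0.07 (adjusted p = 0.000215) in rHCI hearts and −0.55 ± 0.06 (adjusted p = 5.18e-06) in PBS hearts.

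The MEF2 factors are MADS-box proteins whose activity is held down by class IIa histone deacetylases and released by calcium-dependent kinases. Mef2a and Mef2d were lower and Mef2c was not. Mef2a (ENSMUSG00000030557; chromosome 7, 67231163 to 67372858), a MEF2 gene that adult mouse heart muscle needs for intact mitochondria, had 224, 196, 206, 245 and 253 CPM in rHCI hearts, 207, 205, 207, 206 and 239 CPM in PBS hearts, and 327, 348, 352, 280.1 and 299 CPM in Sham hearts. Groups did not overlap with Sham, and within the PBS group PBS 14 stood above 4 hearts that lay close together. The log2 fold change was −0.50 ± 0.09 (adjusted p = 0.000283) in rHCI hearts and −0.59 ± 0.07 (adjusted p = 5.49e-06) in PBS hearts.

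Mef2d (ENSMUSG00000001419; chromosome 3, 88142372 to 88172086), which mediates stress-dependent remodelling in mice, had 159.9, 148, 159, 182 and 194 CPM in rHCI hearts, 152, 159, 152, 139 and 181 CPM in PBS hearts, and 229.6, 211, 219, 213 and 245 CPM in Sham hearts. All Sham hearts were above all infarcted hearts, with the log2 fold change at −0.39 ± 0.07 (adjusted p = 0.000557) in rHCI hearts and −0.51 ± 0.07 (adjusted p = 1.21e-05) in PBS hearts. Mef2c (ENSMUSG00000005583; chromosome 13, 83504034 to 83667080), needed for heart looping and right ventricle formation in mouse embryos and also active in endothelium, had 81.9, 77.5, 68.0, 75.5 and 88.0 CPM in rHCI hearts, 76.0, 78.6, 74.0, 77.2 and 80.6 CPM in PBS hearts, and 83.3, 82.1, 75.5, 74.4 and 70.8 CPM in Sham hearts. The PBS values lay within the Sham range and the rHCI values spread to both sides of it. Its log2 fold change was 0.03 ± 0.07 (adjusted p = 0.738) in rHCI hearts, with a 95% interval of −0.13 to 0.18, and 0.00 ± 0.05 (adjusted p = 0.999) in PBS hearts, with an interval of −0.11 to 0.11.

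Of the T-box factors, Tbx5 was lower in both comparisons and Tbx20 was called higher in PBS hearts. Tbx5, which patterns the left ventricle and septum and activates Nppa and Gja5 with NKX2-5 (ENSMUSG00000018263; chromosome 5, 119832668 to 119885219), had 29.8, 16.9, 20.4, 33.3 and 32.4 CPM in rHCI hearts, 23.0, 23.4, 21.1, 14.5 and 27.6 CPM in PBS hearts, and 32.4, 34.5, 35.1, 39.6 and 36.9 CPM in Sham hearts. PBS hearts were all below Sham, whereas rHCI 11 lay inside the Sham range and rHCI 3 and rHCI 7 well below it. The log2 fold change was −0.42 ± 0.16 (adjusted p = 0.0394) in rHCI hearts and −0.71 ± 0.13 (adjusted p = 0.000273) in PBS hearts. In rHCI hearts the call was lost without rHCI 3 (−0.29, adjusted p = 0.0564), without rHCI 7 (−0.34, 0.0942) and without Sham 17, 18, 19 or 20 (−0.43, −0.42, −0.38 and −0.41, with adjusted p of 0.0566, 0.0602, 0.0836 and 0.0669). Tbx20, a T-box factor with both activating and repressing roles that adult mouse heart muscle needs for contraction (ENSMUSG00000031965; chromosome 9, 24718138 to 24774303), had 190.0, 221, 188, 174 and 142 CPM in rHCI hearts, 168, 192, 184, 212 and 173 CPM in PBS hearts, and 167, 151, 178, 163 and 129.6 CPM in Sham hearts. The groups overlapped, with rHCI 3 and PBS 12 highest. Its log2 fold change was 0.23 ± 0.11 (adjusted p = 0.0972) in rHCI hearts and 0.24 ± 0.08 (adjusted p = 0.0209) in PBS hearts, where no other member was called higher. In rHCI hearts Tbx20 passed without rHCI 13 (0.30, adjusted p = 0.0127). The call in PBS hearts was lost without PBS 12 (0.19, adjusted p = 0.0517), within the shared sequencing run (0.24, 0.0544) and when a change beyond 1.2-fold was required (adjusted p = 0.531).

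Among the members Hand2 had the largest fold change in both comparisons. Hand2 (ENSMUSG00000038193; chromosome 8, 57320983 to 57324633), whose promoter is printed above, had 40.0, 35.3, 46.4, 42.5 and 46.8 CPM in rHCI hearts, 34.3, 43.9, 38.6, 43.4 and 48.4 CPM in PBS hearts, and 88.2, 89.3, 105, 83.8 and 129 CPM in Sham hearts. The highest infarcted heart, PBS 14, stood well below the lowest Sham heart, and Sham 20 was the highest of all. The log2 fold change was −1.22 ± 0.12 (adjusted p = 2.73e-06) in rHCI hearts and −1.25 ± 0.12 (adjusted p = 6.23e-07) in PBS hearts, which is 0.430 times the Sham level in rHCI and 0.421 times in PBS hearts. Its divergent neighbour Hand2os1, a long noncoding RNA on the opposite strand that shares 461 exonic bases with Hand2, 19.6% of the exonic length of Hand2, was lower too. Hand2os1 averaged 25.2 ± 3.38 CPM in rHCI hearts, 22.8 ± 3.35 CPM in PBS hearts and 42.7 ± 2.34 CPM in Sham hearts (SD, n = 5 each), with log2 fold changes of −0.75 ± 0.08 (adjusted p = 9.19e-06) in rHCI and −0.91 ± 0.08 (adjusted p = 6.78e-07) in PBS hearts. The library kit keeps the strand, but the strand setting of the counting is not given in the sources used here, so that reads of the shared part may have been counted for either gene. Hand1 (ENSMUSG00000037335; chromosome 11, 57828705 to 57832818) had 2, 2, 1, 1 and 1 counts in the rHCI libraries, 4, 4, 2, 1 and 4 in the PBS libraries and 0, 2, 4, 0 and 5 in the Sham libraries, too few to compare.

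Of the other members, Gata6, Mef2a and Mef2d also share exonic bases with a gene on the opposite strand. Gata6 shares 1.43% of its exonic length with 1010001N08Rik, which was lower in both comparisons (−0.63 ± 0.12 (adjusted p = 0.000795) in rHCI and −0.97 ± 0.09 (adjusted p = 7.15e-07) in PBS hearts). Mef2a shares 2.06% with Lysmd4 (−0.18 ± 0.11 (adjusted p = 0.172) in rHCI and −0.23 ± 0.09 (adjusted p = 0.0405) in PBS hearts). Mef2d shares 8.87% with 1700113A16Rik, which had 12 to 41 counts per library and passed in neither comparison.

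Within the libraries of the shared sequencing run, 4 per group, the same falls were present. In rHCI hearts the log2 fold changes there were −1.25 for Hand2, −0.55 for Mef2a, −0.50 for Gata6, −0.42 for Nkx2-5 and −0.39 for Mef2d, each called, and −0.42 for Tbx5 (adjusted p = 0.0853). In PBS hearts they were −1.32 for Hand2, −0.69 for Tbx5, −0.62 for Mef2a, −0.55 for Nkx2-5, −0.53 for Mef2d and −0.52 for Gata6, each called. The other 2 runs held 1 or 2 libraries and could not be tested alone.

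The values of all members tested depend on the scaling. With library totals that of Gata4 changed sign in both comparisons, and that of Mef2c in PBS hearts, from −0.0001 to 0.2737. With library totals in place of TMM the median of all genes moved up by 0.22 in rHCI and 0.27 in PBS hearts, and 79.0% of the calls in rHCI and 77.4% in PBS hearts were higher, against 53.4% and 51.2% with TMM. Of 16076 genes tested in rHCI hearts 8011 were then called higher and 2128 lower. In PBS hearts 8938 of 16207 were called higher and 2610 lower, and counts with library totals given below stand beside these. On that scale Mef2c was called higher (0.25 ± 0.07 in rHCI, adjusted p = 0.00911, and 0.27 ± 0.05 in PBS hearts, adjusted p = 0.00052), close to the shift of all genes. Gata4 stood at 0.16 ± 0.07 in rHCI (adjusted p = 0.0537) and 0.15 ± 0.06 in PBS hearts (adjusted p = 0.0564), below the shift. Tbx20 was called higher in both, at 0.46 ± 0.13 in rHCI and 0.51 ± 0.09 in PBS hearts. On this scale Hand2 (−1.0), Mef2a (−0.29), Gata6 (−0.27), Nkx2-5 (−0.23) and Mef2d (−0.18) were called lower in rHCI hearts. In PBS hearts Hand2 (−0.97), Mef2a (−0.32), Nkx2-5 (−0.28), Mef2d (−0.24) and Gata6 (−0.23) were called lower. Tbx5 was called lower in PBS hearts (−0.44) and not in rHCI hearts (−0.21, adjusted p = 0.238).

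Sarcomere genes were lower as well, and each factor was also compared with them inside the same library. The 20 sarcomere genes, the contractile proteins of the muscle cell, had a median log2 fold change of −0.49 in rHCI and −0.65 in PBS hearts on the TMM scale, with 18 lower and 0 higher in each. When each library was scaled by the geometric mean of these 20 genes, most genes were called higher, namely 70.4% of all genes tested with 3.06% lower in rHCI hearts, and 77.6% higher with 3.39% lower in PBS hearts. Of the 9 members, 3 were higher and 1 lower in each comparison. The median of the members was 0.05 in rHCI and 0.13 in PBS hearts on this scale, against 0.50 and 0.64 over all genes tested.

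Hand2 was the member called lower on this scale, where few genes are, with −0.73 ± 0.11 (adjusted p = 5.85e-05) in rHCI and −0.61 ± 0.10 (adjusted p = 4.32e-05) in PBS hearts. Tbx20, Mef2c and Gata4 were higher relative to sarcomere genes. Tbx20 had 0.74 ± 0.16 (adjusted p = 0.00101) in rHCI and 0.89 ± 0.11 (adjusted p = 1.21e-06) in PBS hearts. Mef2c had 0.52 ± 0.10 (adjusted p = 0.000375) in rHCI and 0.64 ± 0.09 (adjusted p = 3.15e-06) in PBS hearts, and Gata4 had 0.44 ± 0.10 (adjusted p = 0.00112) in rHCI and 0.51 ± 0.08 (adjusted p = 1.33e-05) in PBS hearts. These 2 lay near the median of all genes on this scale.

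For the remaining 5 members the difference from the sarcomere genes did not pass. Gata6 had 0.01 ± 0.07 (adjusted p = 0.923) in rHCI and 0.14 ± 0.07 (adjusted p = 0.078) in PBS hearts. Mef2d had 0.09 ± 0.06 (adjusted p = 0.168) in rHCI and 0.13 ± 0.06 (adjusted p = 0.0713) in PBS hearts. For Nkx2-5, Mef2a and Tbx5 the 95% intervals were −0.13 to 0.22, −0.21 to 0.17 and −0.22 to 0.32 in rHCI hearts, and −0.08 to 0.26, −0.14 to 0.23 and −0.32 to 0.16 in PBS hearts. Without PBS 14, the PBS heart with the highest summed sarcomere level, Gata6 (0.18, adjusted p = 0.0127) and Mef2d (0.13, adjusted p = 0.0445) were also called higher relative to sarcomere genes, which made 5 members. Without Sham 17, Mef2d was called as well (0.15, adjusted p = 0.0455).

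**Figure D2:**
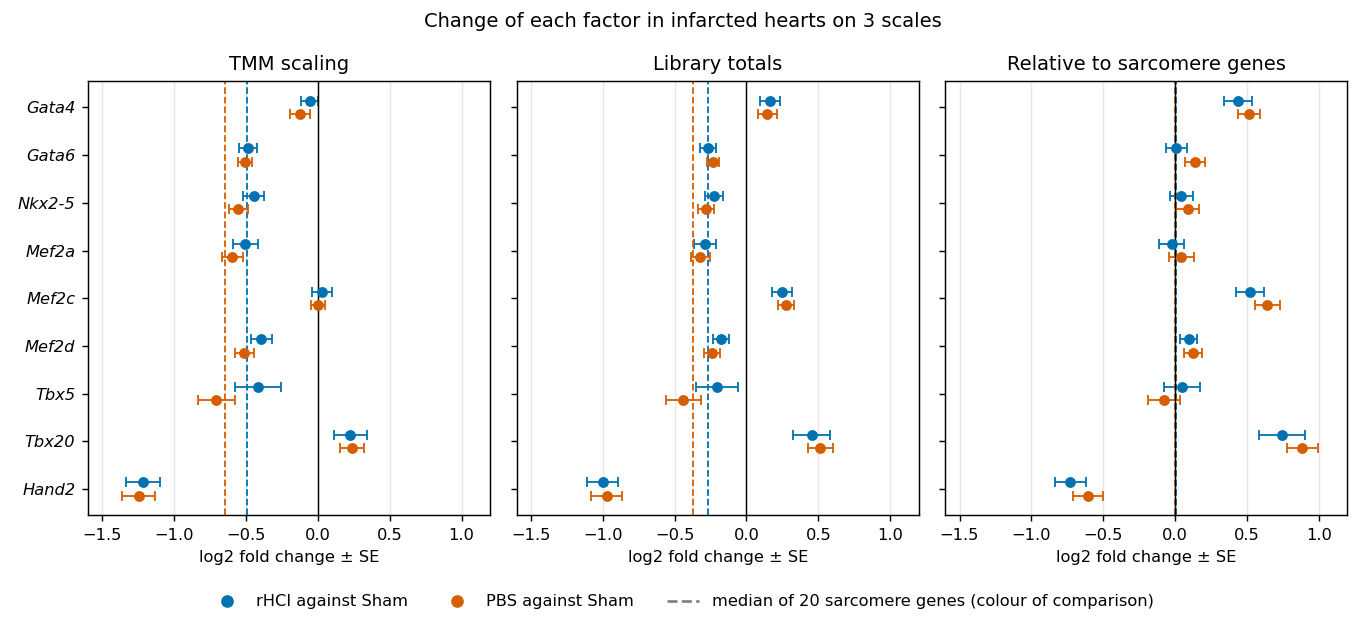
Log2 fold change with its standard error for 9 factors in rHCI (blue) and PBS (orange) hearts against Sham, with TMM scaling, with library totals and relative to 20 sarcomere genes, whose median is the dashed line of each comparison. Hand2 lies left of the dashed lines and Tbx20, Mef2c and Gata4 right of them on every scale.

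Relatives within a family were then compared as a ratio inside each heart, which a change of the library's scaling leaves in place. The ratio of Gata6 to Gata4 in CPM was 0.534, 0.529, 0.541, 0.684 and 0.549 in rHCI hearts, 0.549, 0.555, 0.631, 0.637 and 0.562 in PBS hearts, and 0.781, 0.718, 0.823, 0.685 and 0.807 in Sham hearts. It was lower in every infarcted heart than in any Sham heart, with rHCI 11 next to the lowest Sham heart, by −0.43 in rHCI and −0.38 in PBS hearts on the log2 scale of CPM + 0.5. Mef2c to Mef2a was 0.365, 0.396, 0.331, 0.308 and 0.348 in rHCI hearts, 0.367, 0.383, 0.358, 0.375 and 0.337 in PBS hearts, and 0.255, 0.236, 0.214, 0.266 and 0.237 in Sham hearts. Every infarcted heart exceeded every Sham heart, with differences of 0.53 in rHCI and 0.59 in PBS hearts. All 4 of these differences had an exact two-sided permutation p of 0.00794, the smallest that 252 arrangements can give, and 0.0170 after Benjamini-Hochberg adjustment over 15 ratios and comparisons.

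The Tbx20 to Tbx5 ratio was 6.38, 13.1, 9.22, 5.23 and 4.39 in rHCI hearts, 7.32, 8.22, 8.74, 14.6 and 6.28 in PBS hearts, and 5.14, 4.38, 5.07, 4.13 and 3.52 in Sham hearts. PBS hearts were all above Sham hearts (difference 0.96 on the log2 scale, exact permutation p = 0.00794, adjusted 0.0170). The rHCI hearts overlapped with Sham (0.67, exact permutation p = 0.0397, adjusted 0.0744), and passed without rHCI 13 (0.84, adjusted p = 0.0149). Mef2d to Mef2a did not differ beyond the spread between hearts (0.11 in rHCI, exact permutation p = 0.270, and 0.08 in PBS hearts, exact permutation p = 0.429). The ratio of Hand2 to Hand1 (−1.19 in rHCI and −1.27 in PBS hearts) rests on Hand2 and on the pseudocount, with Hand1 near 0. Between rHCI and PBS hearts no ratio passed, with exact permutation p from 0.405 to 0.595.

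**Figure D3:**
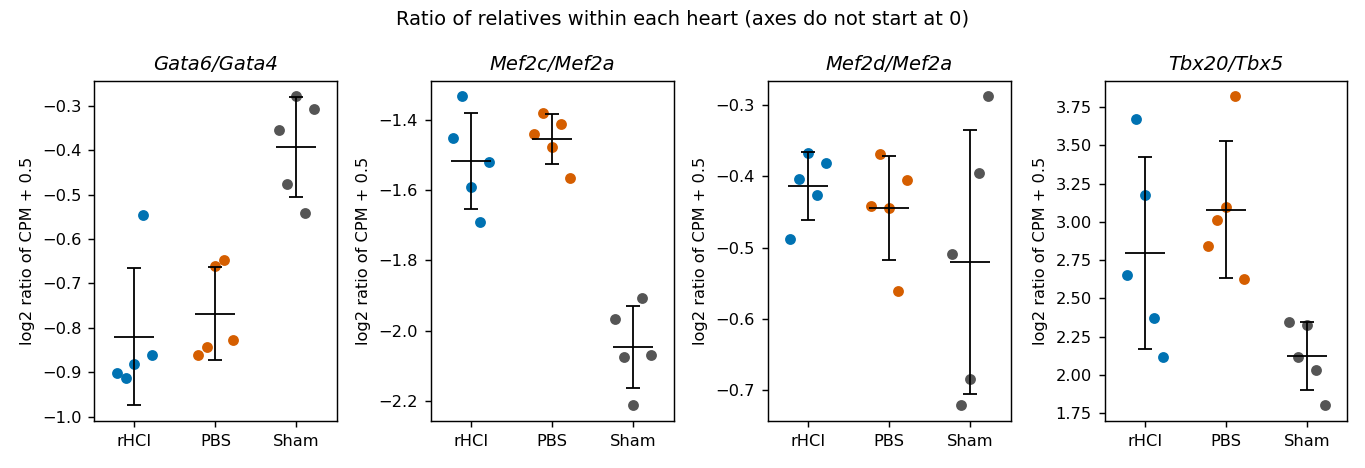
Log2 ratio of CPM + 0.5 for 4 pairs of related factors in each heart, with mean and SD of 5 hearts per group; the axes do not start at 0. Gata6/Gata4 lies lower and Mef2c/Mef2a higher in all infarcted hearts than in Sham, while Mef2d/Mef2a overlaps.

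The comparison of rHCI with PBS hearts asks what the hydrogel changed within 2 days. No member was called, and of all 16383 genes tested 0% were called higher and 0% lower, also relative to sarcomere genes, while 579 had an unadjusted p under 0.05. DESeq2 called 6 genes and limma-voom 3, none of them a member. Tbx5 averaged 26.6 ± 7.44 CPM in rHCI hearts and 21.9 ± 4.77 CPM in PBS hearts (SD, n = 5 each), a log2 fold change of 0.28 ± 0.20 (adjusted p = 0.871) with a 95% interval of −0.17 to 0.73. Of the rHCI hearts 3 were above all PBS hearts and 2 lay within the PBS range. Hand2 averaged 42.2 ± 4.79 CPM in rHCI hearts and 41.7 ± 5.41 CPM in PBS hearts, with an interval of −0.19 to 0.23, which does not reach the log2 difference of 1.25 between PBS and Sham hearts. For Gata4 the interval was −0.09 to 0.21, for Gata6 −0.11 to 0.13 and for Nkx2-5 −0.05 to 0.25. Mef2a had −0.08 to 0.24, Mef2c −0.12 to 0.16, Mef2d −0.07 to 0.29 and Tbx20 −0.25 to 0.21. Adjusted p ran from 0.871 to 0.972, and the median of the 9 members was 0.06 against 0.00 over all genes.

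**Figure D4:**
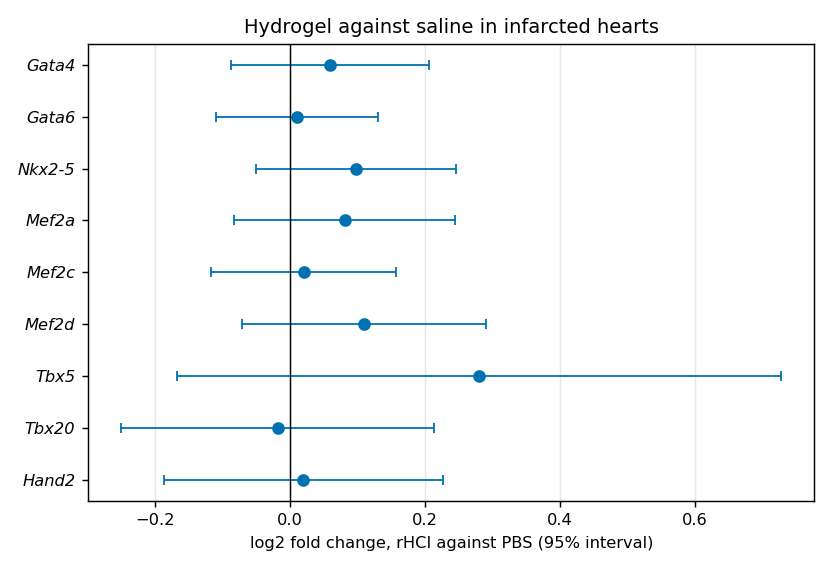
Log2 fold change of rHCI against PBS hearts for 9 factors, with 95% intervals from edgeR. Every interval includes 0, and that of Tbx5 is the widest, from −0.17 to 0.73.

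Levels were set beside each other between genes after division by exonic length (CPM per kb, union of annotated exons). This union spans 15715 bases for Mef2c and 1719 for Nkx2-5. It can exceed the length of the transcripts expressed, which was not measured, so the order of genes depends on it. In Sham hearts Nkx2-5 led with 44.5 ± 3.63 CPM per kb (SD, n = 5), followed by Hand2 with 42.1 ± 7.83, Mef2d with 37.3 ± 2.33 and Gata4 with 34.4 ± 2.5. Among these 4, neighbours in this order overlapped in range. Mef2a (21.9 ± 2.13), Gata6 (15.7 ± 0.915), Tbx20 (13.2 ± 1.53), Tbx5 (7.64 ± 0.573) and Mef2c (4.91 ± 0.339) followed, in CPM per kb, all apart from each other in range. In rHCI hearts Gata4 led with 32.8 ± 1.79 CPM per kb, level with Nkx2-5 at 32.4 ± 2.84, and in PBS hearts it had 31.6 ± 2.81 against 30.4 ± 2.23 for Nkx2-5. Hand2, second in Sham hearts, stood at 17.9 ± 2.04 CPM per kb in rHCI and 17.7 ± 2.30 in PBS hearts, between Mef2d and the pair of Mef2a and Tbx20. Hand1 had 0.0127 CPM per kb in rHCI, 0.0259 in PBS and 0.0174 in Sham hearts.

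The same few infarcted hearts were the lowest or the highest of their group for several factors. Among rHCI hearts, rHCI 3 was the lowest for 6 of the 9 factors and rHCI 13 the highest for 4. Among PBS hearts, PBS 12 was the lowest for 5 and PBS 14 the highest for 7. Among Sham hearts none was the lowest for more than 3 or the highest for more than 3. The summed level of the 20 sarcomere genes was 55574 CPM in rHCI 3 and 78426 CPM in rHCI 13, and 54533 CPM in PBS 12 and 73079 CPM in PBS 14, the lowest and the highest of each group. With each group centred on its mean, the correlation over the 15 libraries with the mean log2 level of the sarcomere genes was 0.91 for Mef2d, 0.76 for Tbx5, 0.70 for Gata6, 0.67 for Nkx2-5, 0.59 for Hand2, 0.57 for Mef2a, 0.32 for Gata4, 0.27 for Mef2c and −0.55 for Tbx20 (Pearson). Without rHCI 3 and PBS 14, the 2 farthest libraries, these were 0.86, 0.60, 0.55, 0.47, 0.42, 0.30, 0.11, 0.26 and −0.40 in the same order. The libraries share their scaling factors between genes, and the values describe these hearts only.

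The genes whose centred levels followed each member most closely were found among 10352 genes over the 15 libraries. For Mef2d they were Slc25a34 (r = 0.98), Mettl20 (0.97) and Dcaf8 (0.97), and for Tbx20 Dock6 (0.99), Sh3pxd2a (0.97) and Myo1e (0.95). Tbx5 went with Keap1 (0.95), which encodes the inhibitor of the oxidative stress factor NRF2, Dgke (0.95) and Tmem126b (0.94). Mef2a went with Ide (0.94), Lrrfip2 (0.93) and Ralgapa2 (0.93), Hand2 with Wbp2 (0.93), Bri3 (0.92) and Dctn3 (0.89), and Nkx2-5 with Mavs (0.90), Homer1 (0.89) and Perm1 (0.89), a regulator of muscle mitochondria. The closest gene reached 0.86 for Gata4 (Cwf19l1), 0.85 for Gata6 (March9) and 0.87 for Mef2c (Mre11a). No other member was among these. They are the highest of 10352 correlations over 15 libraries, so their size owes part to that choice, and links between the genes were not tested.

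Other regulators that work with the factors moved in both directions. Of 32 listed, 30 were tested, of which 8 were higher and 13 lower in rHCI hearts, and 10 higher and 13 lower in PBS hearts. Over all genes tested, 34.1% were higher and 29.7% lower in rHCI hearts, and 36.5% higher and 34.9% lower in PBS hearts. The counts of this and every list below stand beside these shares. The median log2 fold change of the regulators was −0.07 in rHCI and −0.12 in PBS hearts. It turned to 0.15 in both with library totals, where 11 were higher and 7 lower in rHCI hearts and 13 higher and 10 lower in PBS hearts. Nfatc4, a calcineurin-dependent factor that partners GATA4, averaged 19.9 ± 4.28 CPM in rHCI hearts, 23.4 ± 2.74 CPM in PBS hearts and 4.93 ± 0.309 CPM in Sham hearts (SD, n = 5 each), with log2 fold changes of 2.03 ± 0.13 in rHCI and 2.25 ± 0.09 in PBS hearts. Gata5, the GATA factor of endocardium and epicardium, averaged 1.46 ± 0.512 CPM in rHCI hearts, 1.84 ± 0.535 CPM in PBS hearts and 0.401 ± 0.102 CPM in Sham hearts, with log2 fold changes of 1.86 ± 0.26 in rHCI and 2.18 ± 0.25 in PBS hearts. Tbx18, a T-box factor of the epicardium and sinus node, had log2 fold changes of 1.12 ± 0.10 in rHCI and 1.26 ± 0.09 in PBS hearts. Nfatc4, Gata5 and Tbx18 were called higher in both comparisons, beside epicardial and fibroblast markers that were higher too, as given below. Prdm16, which keeps compact ventricular muscle in mice, was lower, at 15.0 ± 2.56 CPM in rHCI hearts, 12.9 ± 2.32 CPM in PBS hearts and 26.9 ± 3.33 CPM in Sham hearts.

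Partners of the members and the relatives of these partners on the list were picked out after their values were seen. Srf, the serum response factor, had log2 fold changes of −0.51 ± 0.08 in rHCI and −0.60 ± 0.07 in PBS hearts, and its coactivator Myocd −0.54 ± 0.11 in rHCI and −0.59 ± 0.11 in PBS hearts. Zfpm2, which encodes the GATA4 cofactor FOG2, had −0.42 ± 0.07 in rHCI and −0.50 ± 0.06 in PBS hearts, and Tead1, which binds MCAT elements of muscle promoters, −0.37 ± 0.07 in rHCI and −0.46 ± 0.06 in PBS hearts. Each of these 4 was called lower in both comparisons, and none of the 5 relatives that follow was. Mrtfa, a second kind of coactivator of SRF, was called higher in both (0.72 ± 0.09 in rHCI and 0.86 ± 0.06 in PBS hearts), and Mrtfb, its close relative, had 0.11 ± 0.07 (adjusted p = 0.163) in rHCI and 0.02 ± 0.06 (adjusted p = 0.778) in PBS hearts. Zfpm1, the FOG1 gene, had −0.07 ± 0.06 (adjusted p = 0.321) in rHCI and −0.10 ± 0.06 (adjusted p = 0.119) in PBS hearts. Of the TEAD genes, Tead3 had 0.06 ± 0.08 (adjusted p = 0.482) in rHCI and 0.15 ± 0.05 (adjusted p = 0.024) in PBS hearts, and Tead4 −0.21 ± 0.14 (adjusted p = 0.195) in rHCI and −0.13 ± 0.12 (adjusted p = 0.365) in PBS hearts.

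Among 19 genes that control MEF2 and GATA4 activity, 4 were higher and 10 lower in rHCI hearts and 4 higher and 11 lower in PBS hearts. With library totals 8 were higher and 4 lower in rHCI hearts, and 8 higher and 6 lower in PBS hearts. The class IIa deacetylases, which bind and silence MEF2, split. Hdac9 was lower, averaging 19.6 ± 4.92 CPM in rHCI hearts, 18.4 ± 1.75 CPM in PBS hearts and 35.3 ± 2.12 CPM in Sham hearts (SD, n = 5 each), with log2 fold changes of −0.84 ± 0.14 in rHCI and −0.94 ± 0.07 in PBS hearts. Hdac7, known in mice for its part in blood vessels, was higher, averaging 67.5 ± 9.25 CPM in rHCI hearts, 67.2 ± 5.42 CPM in PBS hearts and 38.6 ± 3.02 CPM in Sham hearts, with log2 fold changes of 0.82 ± 0.09 in rHCI and 0.80 ± 0.07 in PBS hearts. Of the remaining members of the class, chosen after their values were seen, Hdac5 was lower (−0.36 ± 0.05 in rHCI and −0.42 ± 0.05 in PBS hearts) and Hdac4 had log2 fold changes of 0.03 ± 0.12 (adjusted p = 0.862) in rHCI and −0.08 ± 0.09 (adjusted p = 0.439) in PBS hearts. Mapk7, the ERK5 kinase that phosphorylates MEF2 proteins, was higher, with 0.97 ± 0.09 in rHCI and 1.09 ± 0.07 in PBS hearts. Rcan1, an inhibitor of calcineurin that calcineurin itself induces, averaged 206 ± 101 CPM in rHCI hearts, 212 ± 102 CPM in PBS hearts and 123 ± 16.3 CPM in Sham hearts, with a wide spread among infarcted hearts, and had log2 fold changes of 0.75 ± 0.30 (adjusted p = 0.0418) in rHCI and 0.78 ± 0.24 (adjusted p = 0.00982) in PBS hearts.

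Known targets of the factors moved in both directions too. Of 27 tested, 8 were higher and 16 lower in both comparisons, and Gata6 itself is on the list. Their medians were −0.30 in rHCI and −0.33 in PBS hearts. With library totals 9 were higher and 9 lower in rHCI hearts, and 9 higher and 12 lower in PBS hearts. Nppa, the atrial natriuretic peptide gene that GATA4, NKX2-5 and TBX5 activate, averaged 2912 ± 1381 CPM in rHCI hearts, 3226 ± 593 CPM in PBS hearts and 250.0 ± 50.7 CPM in Sham hearts (SD, n = 5 each). Its log2 fold changes were 3.56 ± 0.34 in rHCI and 3.69 ± 0.16 in PBS hearts. Nppb, a GATA4 target and the gene of brain natriuretic peptide, had 1.08 ± 0.43 (adjusted p = 0.0414) in rHCI and 1.14 ± 0.29 (adjusted p = 0.0031) in PBS hearts. Myh7, the fetal myosin heavy chain of the mouse ventricle, had 1.63 ± 0.30 in rHCI and 1.61 ± 0.26 in PBS hearts, Ankrd1, a stretch-responsive protein of the sarcomere and nucleus, 1.16 ± 0.24 in rHCI and 1.24 ± 0.18 in PBS hearts, and Acta1, skeletal muscle actin, 0.85 ± 0.23 in rHCI and 1.17 ± 0.24 in PBS hearts. All 5 were called higher in both comparisons. Myh6, the adult myosin heavy chain and a target of GATA4, MEF2 and TBX5, was lower, with −0.76 ± 0.15 in rHCI and −1.01 ± 0.13 in PBS hearts.

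Sarcomere genes gave the scale of the muscle change. Ttn, the giant spring protein titin, averaged 1914 ± 319 CPM in rHCI hearts, 1509.5 ± 643 CPM in PBS hearts and 3430.4 ± 799 CPM in Sham hearts, with log2 fold changes of −0.83 ± 0.16 in rHCI and −1.19 ± 0.23 in PBS hearts. Tnni3, cardiac troponin I, had −0.71 ± 0.14 in rHCI and −0.92 ± 0.10 in PBS hearts. With library totals 14 sarcomere genes in rHCI hearts and 17 in PBS hearts were lower and 0 higher. Calcium handling and channel genes were lower for 16 of 20 in rHCI hearts and 17 of 20 in PBS hearts, with 0 higher (12 and 13 lower and 1 higher in each with library totals). Kcnip2, a subunit of the transient outward potassium channel, had −0.93 ± 0.13 in rHCI and −1.06 ± 0.09 in PBS hearts, and Kcnd2, a pore of that channel, −0.73 ± 0.13 in rHCI and −0.96 ± 0.12 in PBS hearts. Kcnj3, a subunit of the acetylcholine-activated potassium channel, had −0.77 ± 0.20 in rHCI and −1.13 ± 0.14 in PBS hearts, and Atp2a2, the calcium pump SERCA2, −0.79 ± 0.14 in rHCI and −0.95 ± 0.11 in PBS hearts. These 4 were called lower in both comparisons.

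Markers of other cells moved with the infarct, beside the falls of the factors. All 10 fibroblast markers were higher in both comparisons, with summed levels of 13405 to 21704 CPM in rHCI, 14689 to 21426 CPM in PBS and 1238 to 1548 CPM in Sham hearts. Postn, the matrix protein periostin, had log2 fold changes of 5.32 ± 0.21 in rHCI and 5.61 ± 0.17 in PBS hearts, and Col1a1, a mouse collagen I gene, 4.49 ± 0.18 in rHCI and 4.73 ± 0.15 in PBS hearts. All 10 macrophage and leukocyte markers were higher, with sums of 794 to 1017 CPM in rHCI, 805 to 1088 CPM in PBS and 217 to 266 CPM in Sham hearts. Among them Itgam, an integrin of myeloid cells, had 2.82 ± 0.19 in rHCI and 2.77 ± 0.14 in PBS hearts, and Cd68, a lysosomal protein of macrophages, 2.42 ± 0.11 in rHCI and 2.71 ± 0.14 in PBS hearts. Epicardial markers were higher for 9 of 10 in rHCI hearts and 10 of 10 in PBS hearts, with sums of 78.5 to 142 CPM in rHCI, 77.9 to 139 CPM in PBS and 24.1 to 37.0 CPM in Sham hearts. Of these Upk1b had 3.19 ± 0.16 in rHCI and 3.32 ± 0.29 in PBS hearts, and Msln, the mesothelial protein mesothelin, 2.61 ± 0.21 in rHCI and 2.85 ± 0.26 in PBS hearts. The part of these cells in the levels of Gata4, Mef2c, Tbx20 and the other factors was not tested.

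Endothelial markers were higher for 3 and lower for 0 of 10 in rHCI hearts, and higher for 4 and lower for 1 in PBS hearts, with sums of 1348 to 1618 CPM in rHCI, 1374 to 1552 CPM in PBS and 1276 to 1496 CPM in Sham hearts. With library totals 8 in rHCI hearts and 9 in PBS hearts were higher. Smooth muscle and pericyte markers were higher for 5 and lower for 2 of 10 in rHCI hearts, and higher for 5 and lower for 3 in PBS hearts, with sums of 1437 to 1708 CPM in rHCI, 1461 to 1688 CPM in PBS and 1608 to 1847 CPM in Sham hearts. Pdgfrb, the receptor of pericytes and fibroblasts, was higher (1.2 ± 0.12 in rHCI and 1.33 ± 0.08 in PBS hearts). Abcc9, on the same list, was lower (−0.91 ± 0.13 in rHCI and −1.11 ± 0.11 in PBS hearts). It averaged 345 ± 71.7 CPM in rHCI, 303 ± 55.1 CPM in PBS and 653 ± 68.0 CPM in Sham hearts (SD), and so weighs heavily in the sums. Conduction system markers, 8 of 10 tested, were higher for 4 and lower for 2 in both comparisons, with sums of 181 to 214 CPM in rHCI, 200.2 to 206 CPM in PBS and 163 to 195 CPM in Sham hearts. Shox2, a sinus node factor, was higher (1.35 ± 0.20 in rHCI and 1.65 ± 0.16 in PBS hearts), and Tbx3, a T-box repressor of the conduction system, was lower (−0.70 ± 0.16 in rHCI and −0.71 ± 0.13 in PBS hearts). The part of these markers in the factors' levels was not tested.

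Atrial muscle markers were higher for 6 and lower for 1 of 10 tested in rHCI hearts, and higher for 8 and lower for 3 of 11 tested in PBS hearts. Their sums were 518 to 868 CPM in rHCI, 485 to 605 CPM in PBS and 568.2 to 647 CPM in Sham hearts, and rHCI 1 held the highest. Myl4 (2.75 ± 0.52 in rHCI and 2.05 ± 0.35 in PBS hearts), Myl7 (2.72 ± 0.61 in rHCI and 1.92 ± 0.46 in PBS hearts) and Sln (3.21 ± 0.73 in rHCI and 2.24 ± 0.54 in PBS hearts), genes of atrial contraction, were higher. Markers that fell were picked out after their values were seen. Kcnk3, with the largest mean on this list, was lower (−0.71 ± 0.10 in rHCI and −0.89 ± 0.10 in PBS hearts). It averaged 283 ± 46.7 CPM in rHCI, 253 ± 41.9 CPM in PBS and 468 ± 21.0 CPM in Sham hearts, and so weighs most in the sums. Gpr22 (−1.08 ± 0.23) and Stard10 (−0.64 ± 0.10) were lower in PBS hearts and did not pass in rHCI hearts. No marker on any list had 0 counts over a whole group. The part of atrial tissue in the factors' levels was not tested. rHCI 1 was the highest rHCI heart for 1 of the 9 factors and the lowest for 0.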

How the data were processed

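Stranded mRNA libraries were sequenced, per the labels' protocols. The authors deposited raw read counts, whole numbers per gene, in a single table with 0 columns lacking a sample. Among tools, edgeR, STAR, Trimmomatic and Cufflinks are listed, and among builds GRCm38 and mm10, per the submitters' processing notes, which give neither roles nor versions. How strand was treated in counting, by which program and with which annotation, is not given in the sources used here. Each group's 5 samples are called biological replicates in the series' design text. Totals ran from 32978702 to 103356830 counts. Over 30 replicate pairs the lowest chi-square per gene was 10.7, far above sampling noise.

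Groups were compared in pairs of 10 libraries with edgeR 4.0.16 in R 4.3.3 (TMM, filterByExpr, glmQLFit and glmQLFTest, two-sided, Benjamini-Hochberg over all genes tested, threshold 0.05). The fit was repeated with library sizes set to the geometric mean of the 20 sarcomere genes. Ratios of CPM + 0.5 were compared by exact two-sided permutation. Exonic lengths are unions of exons in GENCODE M21, which held 46574 of 47069 identifiers. Scripts were tested on simulated data.

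The members, the gene lists and the tests were chosen with earlier results of these data known. Named genes were all members, Nppa, Nppb, Myh6 and Myh7, up to 4 genes of each list with the largest change in PBS against Sham among those that passed with at least 1 CPM, and the 3 genes most like each member among genes averaging 5 CPM or more. Genes beyond this rule are marked as chosen after their values were seen, which holds for Hdac4 too, and 1 gene that the rule names is not reported here. Alternatives were RLE and upper-quartile factors, library totals, DESeq2 1.42.0, limma-voom (limma 3.58.1), a minimum of 1 CPM in 5 libraries, no filter, all 15 libraries together, the run as a term of the model, libraries of the shared run, a required change of 1.2-fold, omission of mitochondrial genes, scaling by calcium handling genes, pseudocounts of 0.1 and 1 CPM, and omission of each replicate. Upper-quartile factors and the omission of mitochondrial genes were chosen after seeing the data.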

Additional observations from a re-analysis of the deposited data

Results flagged for a closer look

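Of 39 groups of 5 values examined for a sample that stands apart from the other 4, 3 had such a sample, and chance alone flags about 1 group in 20. Nkx2-5 in rHCI 3 was at 47.2 CPM, below the other rHCI hearts at 56.4 to 59.2 CPM. Mef2a in PBS 14 was at 239.3 CPM, above the other PBS hearts at 205.4 to 207 CPM. The log2 ratio of Gata6 to Gata4 in rHCI 11 was −0.5461, above the other rHCI hearts, while in Sham hearts it ran from −0.54 to −0.28. rHCI 3 had the lowest and PBS 14 the highest summed sarcomere level of its group, and the part of this in the values was not tested.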

How the results depend on the processing

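Hand2, Mef2a, Gata6, Nkx2-5 and Mef2d kept their calls against Sham under all 22 alternatives, and Tbx5 did in PBS hearts. Tbx5 in rHCI hearts lost its call in 9 of 22 and Tbx20 in PBS hearts in 5 of 22, with all 15 libraries in 1 fit (adjusted p = 0.0512) and the run as a term (adjusted p = 0.0538) among these. Gata4 in PBS hearts (−0.15, adjusted p = 0.0395) and Tbx20 in rHCI hearts (0.22, adjusted p = 0.0419) passed with limma-voom. Where a result changed, the cause was not tested, apart from the shift of all genes given for library totals.

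These signs turned. In rHCI against Sham, Gata4 was 0.1628 with library totals, Mef2c −0.0001 within the shared run, and Mef2a relative to sarcomere genes 0.0053 when calcium handling genes set the scale. In PBS against Sham, library totals gave 0.1462 for Gata4 and 0.2737 for Mef2c, and Mef2c was 0.0161 with the minimum of 1 CPM and 0.0036 with all 15 libraries. In rHCI against PBS, library totals gave −0.0340 for Gata6, −0.0257 for Mef2c and −0.0255 for Hand2.

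With library totals 8011 of 16076 genes were called higher in rHCI and 8938 of 16207 in PBS hearts against Sham. The number of members called higher was then 2 in each comparison with Sham. It was 1 in rHCI hearts with limma-voom, and 0 in PBS hearts with all 15 libraries, with the run as a term, within the shared run and with the required change of 1.2-fold. That last setting left 6157 genes called in rHCI against Sham. In rHCI against PBS, DESeq2 called 6 genes and limma-voom 3.

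Leaving out 1 replicate at a time gave these ranges. In rHCI against Sham, 0 to 1 members were higher, Mef2c ran from −0.0229 to 0.0757 and the log2 ratio of Tbx20 to Tbx5 from 0.4544 to 0.8433. Relative to sarcomere genes, Gata6 ran from −0.0193 to 0.0595, Nkx2-5 from −0.0059 to 0.0693, Mef2a from −0.0711 to 0.0514 and Tbx5 from −0.0169 to 0.1280. In PBS against Sham, 0 to 1 members were higher and Mef2c ran from −0.0351 to 0.0248. Relative to sarcomere genes, 3 to 5 members were higher, Mef2a ran from −0.0057 to 0.1168 and Tbx5 from −0.1312 to 0.0198. In rHCI against PBS, 0 to 3 genes were called on either scale, the upper end being without rHCI 13. Gata6 ran from −0.0311 to 0.0417, Mef2c from −0.0258 to 0.0652, Tbx20 from −0.0984 to 0.0598, Hand2 from −0.0375 to 0.0766 and the log2 ratio of Hand2 to Hand1 from −0.0163 to 0.1565.

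No paired analysis was possible because the groups share no replicate numbers. Counting error limits Hand1 alone among the members.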
